A study of Bos taurus with 7 samples.

Results

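Necroptosis and pyroptosis are lytic forms of cell death, and the genes that carry them out were followed in bovine luteal tissue from day 4 to day 6 of the estrous cycle. The set names 8 genes: RIPK1, RIPK3 and MLKL of necroptosis, and NLRP3, PYCARD, CASP1, CASP4 and GSDMD of pyroptosis. They were looked up by symbol among the 19539 entries of the authors' deposited table, and 7 of the 8 were found, each on a single entry. CASP1 was not analysed here. A further 3559 entries carry a transcript identifier with no symbol, and none of them was assigned to a gene.

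The corpus luteum, built from the follicle wall after ovulation, is the main source of progesterone in the cycle. Whole luteal tissue of cows was compared on day 4 (3 libraries) and day 6 (4 libraries) by sequencing of messenger RNA. Every cow, on both days, had been synchronised by a device releasing progesterone (7 days), by PGF2α at 25 mg and by gonadotropin-releasing hormone at 86 mcg, with ovulation seen by ultrasound on day 2, and the labels otherwise give the cows as untreated. The labels give neither breed nor age, nor whether each library came from a different cow, so p-values measure the spread between these libraries. Day 4 glands were taken after slaughter and glands from after day 6 through the vaginal wall. The labels leave the route for day 6 itself open, so the day and the collection route cannot be told apart. The study's title places luteal death and immune mechanisms beside the acquired ability of the gland to regress, which is the setting of the comparison.

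In necroptosis, as known from human and mouse cells, a death receptor such as the TNF receptor engages the kinase RIPK1, which activates the kinase RIPK3 when caspase-8 is held back. RIPK3 then phosphorylates MLKL, which moves to the plasma membrane and breaks it. In pyroptosis a sensor such as NLRP3 gathers the adaptor PYCARD (also called ASC) and caspase-1 into an inflammasome, while human caspase-4 binds bacterial lipopolysaccharide directly. These caspases cut gasdermin D, the product of GSDMD, whose released N-terminal fragment forms membrane pores, and caspase-1 also matures interleukin-1β and interleukin-18. Roles given below are those known from human and mouse.

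The table of the authors holds 1 mean per day and 1 test per gene, not values per library. Levels are therefore mean TPM (a length-scaled share of all transcripts), without a spread, and it is not known in how many libraries a direction held. Log2 fold changes are day 6 over day 4, obtained by multiplying the deposited Wald statistic by its standard error. Genes count as called at an adjusted p under 0.05, taken from the authors' deposited table. Of 19485 entries tested, 14.5% were called, 4.12% as higher and 10.4% as lower on day 6, and 28.5% had an unadjusted p under 0.05. Of the 7 measured genes 1 was called, CASP4, and 6 were not, a share near that of all entries. Their median log2 fold change was -0.08, beside -0.04 over all tested entries.

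CASP4, the lipopolysaccharide-binding caspase, was the member called. Its mean was 22.0 TPM on day 4 and 35.7 TPM on day 6 in the authors' deposited table. That is a log2 fold change of 0.90 ± 0.26 (the authors' standard error), or 1.87-fold with a 95% Wald interval of 1.31 to 2.67, at an adjusted p of 0.00876 from the authors' deposited table. CASP4 was the most abundant of the 7 genes on both days, followed by RIPK1, GSDMD, PYCARD, RIPK3, MLKL and NLRP3 in that order on each. It made up 33.0% of their summed mean TPM on day 4 and 50.7% on day 6. The call of CASP4 was lost in a test against a fold of 1.5 (adjusted p = 1) and when a t distribution (5 degrees of freedom) replaced the normal one (adjusted p = 0.265). Those tests called 502 and 0 of the 19485 tested entries, so the second loss was not particular to CASP4. The RefSeq table of the later assembly ARS-UCD2.0 gives CASP13 as a synonym of bovine CASP4 and places CASP1 directly beside it. These caspases are related in sequence, and how reads matching both were counted is not given in the sources used here, so the level of CASP4 is uncertain to that extent.

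**Figure D1:**
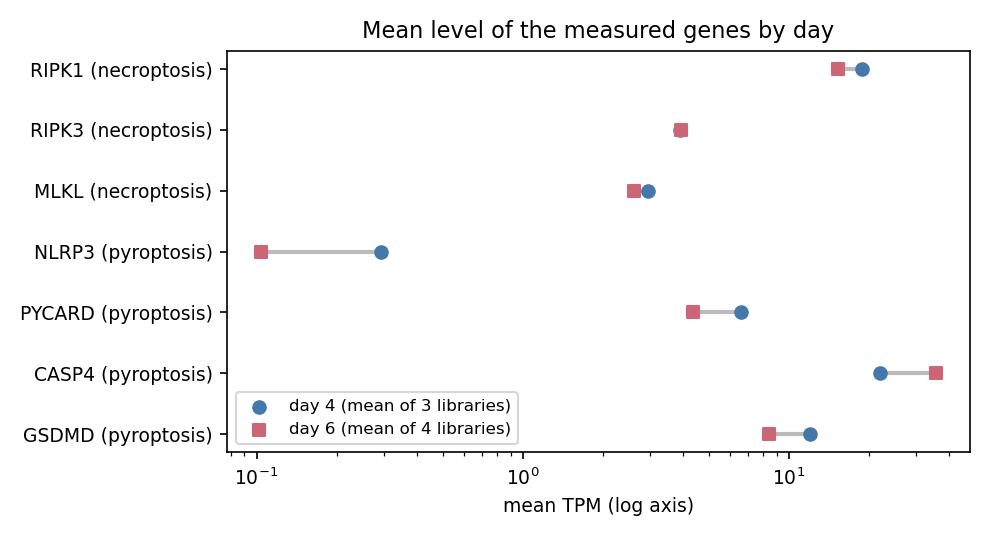
Mean TPM of the 7 measured genes on a log axis, with circles for day 4 (mean of 3 libraries) and squares for day 6 (mean of 4 libraries), without error since the values per library were not used here. CASP4 lies to the right on day 6 (22.0 to 35.7 TPM), RIPK3 has nearly the same mean on both (3.91 and 3.92 TPM), and NLRP3 lies far to the left of all others on both days.

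The other pyroptosis genes had lower means on day 6 and were not called. NLRP3, the inflammasome sensor, was barely represented, with 0.293 TPM on day 4 and 0.104 TPM on day 6 in the authors' deposited table. Its log2 fold change was -1.29 ± 0.53, with an unadjusted p of 0.0156 and an adjusted p of 0.0837 from the authors' deposited table. It was the only gene besides CASP4 with an unadjusted p under 0.05. PYCARD, the adaptor, stood at 6.61 TPM on day 4 and 4.35 TPM on day 6, a log2 fold change of -0.38 ± 0.25 (adjusted p = 0.294 from the authors' deposited table). GSDMD, the pore former, stood at 12.03 and 8.42 TPM, a log2 fold change of -0.35 ± 0.26 (adjusted p = 0.387 from the authors' deposited table). On the scale of the authors' test the intervals of PYCARD, 0.549-fold to 1.07-fold, and of GSDMD, 0.548-fold to 1.12-fold, both include no change. On the TPM scale, described below, both lie below 0 (log2 -1.08 to -0.12 and -1.08 to -0.05), without a call.

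The proportion of the mean of CASP4 to that of its substrate gene GSDMD was higher on day 6. CASP4 had 1.83 times the mean TPM of GSDMD on day 4 and 4.24 times on day 6. Against PYCARD it had 3.33 times the mean TPM on day 4 and 8.21 times on day 6. Such ratios of means carry no error or test here, since the covariance of 2 genes between libraries is not in the table. PYCARD in turn had 22.6 times the mean TPM of NLRP3 on day 4 and 41.8 times on day 6.

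None of the 3 necroptosis genes was called. RIPK1, the kinase at the receptor complex, stood at 18.8 TPM on day 4 and 15.3 TPM on day 6, a log2 fold change of -0.08 ± 0.12 (adjusted p = 0.72 from the authors' deposited table). RIPK3, the kinase of the necrosome, stood at 3.91 and 3.92 TPM, a log2 fold change of 0.21 ± 0.21 (adjusted p = 0.532 from the authors' deposited table). MLKL, the protein that breaks the membrane, stood at 2.96 and 2.61 TPM, a log2 fold change of 0.06 ± 0.46 (adjusted p = 0.948 from the authors' deposited table). RIPK1 had 4.80 times the mean TPM of RIPK3 on day 4 and 3.89 times on day 6, and RIPK3 had 1.32 and 1.501 times that of MLKL. Whether RIPK3 and MLKL, neighbours in the order of levels, differ beyond the spread between libraries cannot be told from means alone.

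**Figure D2:**
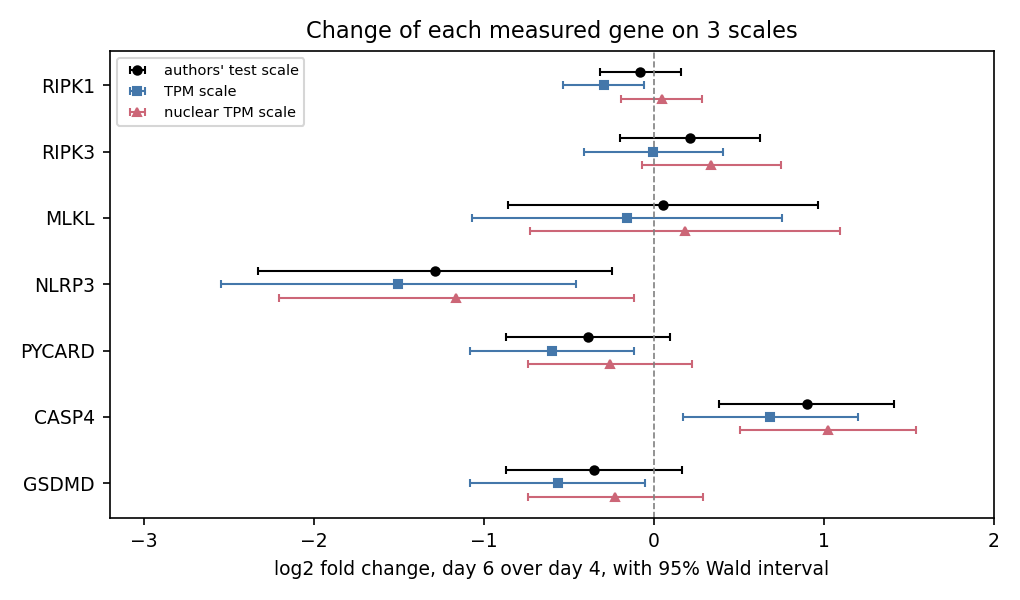
Log2 fold change, day 6 over day 4, of the 7 measured genes with 95% Wald intervals, on the scale of the authors' test (circles), on the TPM scale (squares) and on the nuclear TPM scale, which leaves mitochondrially encoded genes out (triangles). On all 3 scales the interval of CASP4 lies above 0 and that of NLRP3 below 0, while the points of RIPK1, RIPK3 and MLKL change side with the scale. The intervals of RIPK1, PYCARD and GSDMD lie below 0 on the TPM scale only.

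What could have been seen differed between these genes. The smallest change the authors' test would have called, given each standard error, was 1.25-fold for RIPK1, 1.48-fold for RIPK3 and 2.38-fold for MLKL. It was 1.58-fold for PYCARD, 1.63-fold for GSDMD and CASP4, and 2.69-fold for NLRP3. RIPK1 was measured most closely. Its standard error of 0.12 in the authors' deposited table compares with a median of 0.21 among 5650 entries within 2-fold of its mean level, of which 3.40% had a smaller one. The interval of RIPK1 on the scale of the test, 0.803-fold to 1.12-fold, excludes a change of 1.5-fold in either direction. MLKL was measured loosely for its level. Its standard error was 0.46 in the authors' deposited table, against a median of 0.34 among 3196 entries of like level, and its interval of 0.553-fold to 1.96-fold leaves a wide range open in both directions. NLRP3 had the widest error of the 7, 0.53 in the authors' deposited table, and still lay below the median of 1.05 among entries as scarce as itself.

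**Figure D3:**
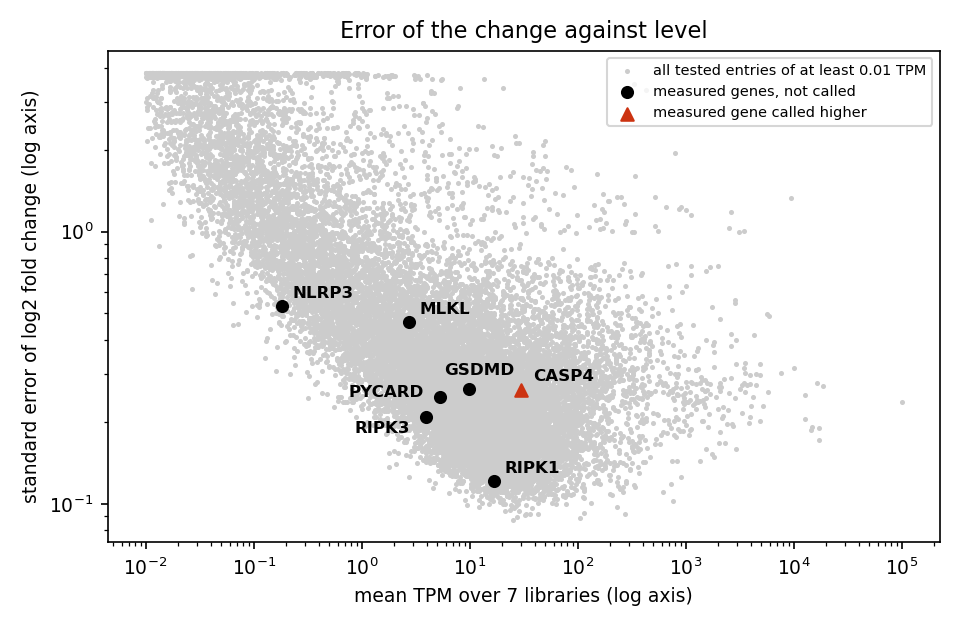
The authors' standard error of the log2 fold change against mean TPM over the 7 libraries, both on log axes, with all tested entries of at least 0.01 TPM in grey. RIPK1 lies at the lower edge of the grey points, and MLKL and NLRP3 have the widest errors of the 7 genes.

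Directions of small changes depended on scaling. The 13 protein genes encoded by mitochondria held 10.3% of the summed mean TPM on day 4 and 29.2% on day 6, which lowers the share left for every other gene. Fold changes of the authors' test exceeded the log2 ratio of mean TPM by 0.21 in the median of 10599 entries averaging at least 5 TPM, and by 0.16 to 0.24 for the 7 genes. Taking 0.21 off every gene gives the TPM scale, on which 6 of the 7 values were negative. Leaving out the mitochondrially encoded genes as well gives the nuclear TPM scale, on which 3 were. Since the same offset serves all genes, both scales are approximate. RIPK3 lay at -0.0020 on the TPM scale, while its own log2 ratio of mean TPM was 0.0043. On the TPM scale NLRP3 passed the threshold as lower (log2 -1.50, adjusted p = 0.027), while PYCARD (-0.60, adjusted p = 0.0643), RIPK1 (-0.29, adjusted p = 0.0675) and GSDMD (-0.57, adjusted p = 0.113) did not. CASP4 was called higher on both TPM scales, at log2 0.68 (adjusted p = 0.0448) and 1.03 (adjusted p = 0.0022). Calls over all entries split into 803 higher and 2020 lower on the scale of the test, 299 and 3829 on the TPM scale, and 1848 and 1595 on the nuclear TPM scale.

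Genes that act around these 7 were taken from 10 lists, of which 119 genes outside the named set were tested. Of these, 6 were called higher and 9 lower, 12.6% in all against 14.5% of all entries. On the TPM scale the split was 1 higher and 28 lower, beside 299 and 3829 of the 19485 entries tested. On the nuclear TPM scale it was 22 and 7, beside 1848 and 1595 of all entries. The whole table thus shifts with the scale, and the counts of single lists on these scales, given below, stand beside the same splits. On the scale of the test, each list count below stands beside 4.12% called higher and 10.4% lower over all entries. None of the lists was tested as a set.

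Upstream of necroptosis, 1 of 12 death ligands and receptors was called, beside 14.5% of all entries. FAS, a death receptor, fell from 4.77 to 2.35 TPM (log2 -0.75 ± 0.24, adjusted p = 0.0183 from the authors' deposited table), a call lost on the nuclear TPM scale. TLR4, the receptor for extracellular lipopolysaccharide, stood at 4.42 and 2.72 TPM (log2 -0.49 ± 0.19, adjusted p = 0.0645 from the authors' deposited table). TNFRSF1B, the second TNF receptor, stood at 14.1 and 8.40 TPM (log2 -0.54 ± 0.28, adjusted p = 0.18 from the authors' deposited table). TNFRSF1A, the receptor through which TNF engages RIPK1, was the most abundant of the list at 106 and 95.4 TPM, while TNF itself stood at 0.307 and 0.303 TPM in the authors' deposited table. The median of the list was -0.07.

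Of 10 adaptors and other inputs to RIPK3, 1 was called, beside 14.5% of all entries. TRAF5, an adaptor of TNF family receptors, fell from 2.41 to 0.283 TPM (log2 -2.85 ± 0.69, adjusted p = 0.00109 from the authors' deposited table). CFLAR, the caspase-8-like protein that restrains both apoptosis and necroptosis, stood at 19.6 and 12.9 TPM (log2 -0.36 ± 0.16, adjusted p = 0.11 from the authors' deposited table). CYLD, the deubiquitinase that promotes necroptosis by trimming RIPK1, stood at 14.9 and 16.7 TPM (log2 0.40 ± 0.19, adjusted p = 0.153 from the authors' deposited table). The list median of 0.18 turned to -0.04 on the TPM scale.

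Among the 18 ubiquitin and kinase checkpoints of RIPK1, 1 was called, beside 14.5% of all entries. TBK1, a kinase that phosphorylates RIPK1 and keeps it inactive, rose from 10.5 to 13.0 TPM (log2 0.54 ± 0.18, adjusted p = 0.026 from the authors' deposited table), a call lost on the TPM scale. BIRC3, a ubiquitin ligase of RIPK1, stood at 11.9 and 7.71 TPM (log2 -0.40 ± 0.16, adjusted p = 0.0654 from the authors' deposited table), and TNIP2, a ubiquitin-binding partner of A20, at 7.63 and 4.26 TPM (log2 -0.64 ± 0.29, adjusted p = 0.123 from the authors' deposited table). The list median was 0.11, and -0.11 on the TPM scale, and 3 of the 18 were called higher on the nuclear TPM scale. Of 12 chaperones and modulators of RIPK3 and MLKL, 1 was called, HSP90AA1, a chaperone that stabilises the necroptosis kinases (491 to 658 TPM, log2 0.53 ± 0.18, adjusted p = 0.0282 from the authors' deposited table). That call too was lost on the TPM scale. HSP90AB1, its paralog, had the opposite sign (675 and 410.1 TPM, log2 -0.52 ± 0.26, adjusted p = 0.164 from the authors' deposited table) and was called lower on the TPM scale (adjusted p = 0.026). TRIM25, a ubiquitin ligase that targets RIPK3 (20.1 and 24.8 TPM, log2 0.53 ± 0.20, adjusted p = 0.0598), and FLOT1, a membrane scaffold that takes MLKL into endosomes (80.7 and 89.4 TPM, log2 0.36 ± 0.15, adjusted p = 0.0812), were not called in the authors' deposited table. The median was 0.44, with 10 of 12 values positive, and stayed positive at 0.22 on the TPM scale. On the nuclear TPM scale 6 of the 12 were called higher, TRIM25 and FLOT1 among them.

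**Figure D4:**
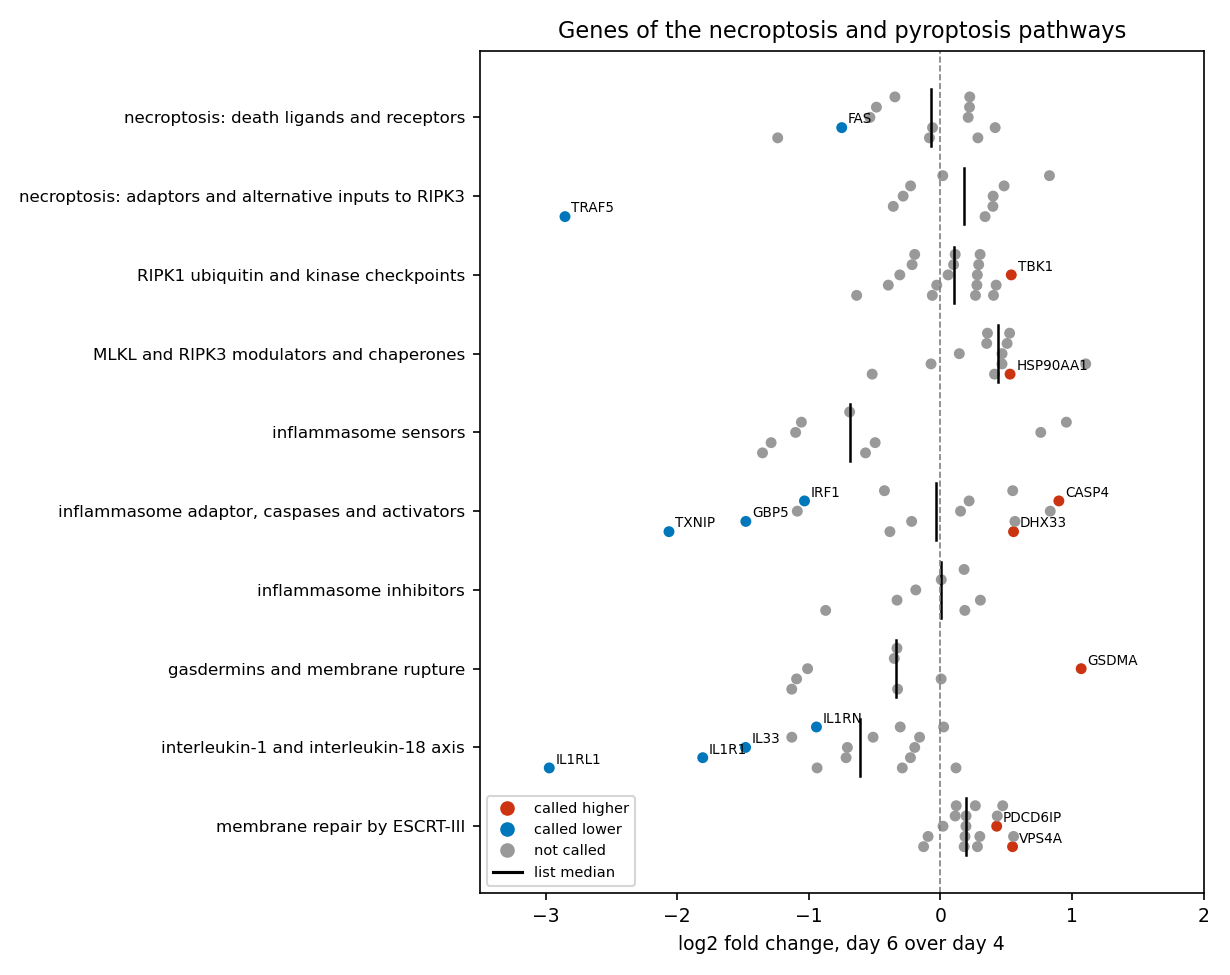
Log2 fold change, day 6 over day 4, of every tested gene of the 10 pathway lists, the measured NLRP3, PYCARD, CASP4 and GSDMD included, on the scale of the authors' test. Red points were called higher, blue points lower and grey points neither, and black bars are list medians; interleukin-1 genes carry 4 blue points and no red one.

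On the pyroptosis side, none of the 9 tested genes of the inflammasome sensor list, NLRP3 included, was called by the authors' Wald test. Over all entries 14.5% were called. Of the 9 genes, 5 had an unadjusted p under 0.05, beside 28.5% of all entries. Their directions differed: NLRP12 was positive (log2 0.96 ± 0.46), and NLRP3, NLRC4, NLRP1 and NOD2 were negative. NLRC4, a sensor of bacterial secretion systems and flagellin (0.919 and 0.498 TPM, log2 -0.69 ± 0.29, adjusted p = 0.0839), and NLRP1, a sensor of proteases and double-stranded RNA (0.398 and 0.16 TPM, log2 -1.10 ± 0.47, adjusted p = 0.0954), had the smallest p after NLRP3 in the authors' deposited table. All 9 genes of the list averaged little, with a summed mean of 6.73 TPM on day 4 and 4.25 TPM on day 6. The list includes the NOD receptors NOD1 and NOD2, which signal through the kinase RIPK2. NOD1 alone held 3.32 TPM of the sum on day 4 and 1.97 TPM on day 6. The list median was -0.69, and 7 of 9 values were negative. On the TPM scale 3 of the 9 were called lower, and on the nuclear TPM scale 0 were.

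Among 14 genes of the adaptor, caspase and activator list, PYCARD and CASP4 included, 2 were called higher and 3 lower. The shares over all entries were 4.12% and 10.4%. TXNIP, which binds NLRP3 under oxidative stress, fell from 306 to 64.4 TPM (log2 -2.06 ± 0.47, adjusted p = 0.00038 from the authors' deposited table). GBP5, a guanylate-binding protein that promotes NLRP3 assembly, fell from 4.56 to 1.37 TPM (log2 -1.48 ± 0.46, adjusted p = 0.0154 from the authors' deposited table). IRF1, an interferon regulatory factor that drives GBP genes, fell from 14.8 to 6.26 TPM (log2 -1.03 ± 0.34, adjusted p = 0.023 from the authors' deposited table). DHX33, an RNA helicase that can feed the NLRP3 inflammasome, rose from 6.27 to 7.87 TPM (log2 0.56 ± 0.18, adjusted p = 0.0179 from the authors' deposited table), a call lost on the TPM scale. The list median was -0.03. None of 7 inflammasome inhibitors was called by the authors' Wald test, with 1 at an unadjusted p under 0.05. SERPINB9, an inhibitor of granzyme B and caspase-1, had the smallest p (6.41 and 3.06 TPM, log2 -0.87 ± 0.36, adjusted p = 0.0877 from the authors' deposited table), followed by MARCHF7 (41.2 and 43.5 TPM, log2 0.30 ± 0.16) and FBXL2 (4.21 and 3.15 TPM, log2 -0.33 ± 0.21), both ubiquitin ligases that act on NLRP3.

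Of the 8 gasdermin and membrane rupture genes, GSDMD included, GSDMA was called, beside 14.5% of all entries. It rose from 0.889 to 1.56 TPM (log2 1.07 ± 0.29, adjusted p = 0.00483 from the authors' deposited table), a pore former best known from skin, and it was called higher on both TPM scales. GSDME, another pore former, stood at 11.3 and 4.93 TPM (log2 -1.01 ± 0.39, adjusted p = 0.0601 from the authors' deposited table), and GSDMB, a substrate of granzyme A in human cells, at 1.90 and 0.769 TPM (log2 -1.09 ± 0.43, adjusted p = 0.0642 from the authors' deposited table). Both were called lower on the TPM scale. NINJ1, which ruptures the membrane after pores have formed, was the most abundant of the list at 37.2 and 25.9 TPM (log2 -0.33 ± 0.30, adjusted p = 0.496 from the authors' deposited table). The list median was -0.34.

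The interleukin-1 and interleukin-18 genes, which include the cytokines that caspase-1 matures, were called lower or not at all. Of 16 tested, 0 were called higher and 4 lower, beside 4.12% and 10.4% of all entries, and 14 values were negative, with a median of -0.61. IL1R1, the signalling receptor for interleukin-1, fell from 20.4 to 5.10 TPM (log2 -1.81 ± 0.38, adjusted p = 7.99e-05 from the authors' deposited table). IL33, an alarmin released from dying cells, fell from 12.8 to 4.05 TPM (log2 -1.48 ± 0.42, adjusted p = 0.00688 from the authors' deposited table), and its receptor IL1RL1 fell from 0.458 to 0.0523 TPM (log2 -2.97 ± 0.89, adjusted p = 0.0113 from the authors' deposited table). IL1RN, the antagonist of the interleukin-1 receptor, fell from 2.27 to 1.53 TPM (log2 -0.94 ± 0.31, adjusted p = 0.0247 from the authors' deposited table), a call lost on the nuclear TPM scale. The test gave IL1RN a fold of 0.52, a steeper fall than its printed means show. In the median entry the test differed from the means in the other direction, so the size of this fall is uncertain. The cytokines themselves were not called: IL1B stood at 3.37 and 2.33 TPM, IL1A at 3.01 and 2.14 TPM, and IL18 at 31.1 and 15.3 TPM (log2 -0.71 ± 0.44, adjusted p = 0.282) from the authors' deposited table.

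Genes of ESCRT-III, the machinery that pinches off damaged membrane and delays both forms of lysis, gave 2 higher and 0 lower calls among 17. The shares over all entries were 4.12% and 10.4%. VPS4A, the ATPase that disassembles ESCRT-III, rose from 75.5 to 97.1 TPM (log2 0.55 ± 0.18, adjusted p = 0.0266 from the authors' deposited table), and PDCD6IP, also called ALIX, rose from 60.7 to 70.2 TPM (log2 0.43 ± 0.15, adjusted p = 0.0407 from the authors' deposited table). Both calls were lost on the TPM scale, while 7 of the 17 were called higher on the nuclear TPM scale. VPS4B, the paralog of VPS4A, stood at 26.1 and 30.8 TPM (log2 0.43 ± 0.17, adjusted p = 0.0656 from the authors' deposited table). The list median of 0.19 turned to -0.02 on the TPM scale and was 0.32 on the nuclear TPM scale.

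Cells that carry this machinery also differed in their markers between the days. In whole tissue, fewer cells of a type and less RNA per cell cannot be told apart. NLRP3, PYCARD and IL1B are known from leukocytes, which does not hold for every gene of the interleukin-1 list. Of 12 macrophage and monocyte markers 0 were called higher and 5 lower, with all 12 values negative and a median of -1.07. Over all entries 4.12% were called higher and 10.4% lower, shares that stand beside each marker count here. The called markers were TYROBP, CD14, CSF1R, C1QC and C1QB, the last of which lost its call on the nuclear TPM scale. The summed mean of the list went from 142 TPM on day 4 to 60.4 TPM on day 6. That of 6 general leukocyte markers went from 91.3 to 37.8 TPM, of which LAPTM5 alone held 47.2 and 17.4 TPM. CORO1A, LCP1, LAPTM5 and CD53 were called lower. The other 2, ITGB2 (log2 -0.73 ± 0.33) and PTPRC (-0.27 ± 0.37), had negative values and were not called. T and natural killer cell markers (8 genes, 2 lower, median -1.18) summed to 20.9 and 7.52 TPM, and B and plasma cell markers (7 genes, 4 lower, median -1.90) to 85.5 and 3.86 TPM. The log2 fold change of NLRP3 (-1.29) lay below the macrophage, leukocyte and T cell medians and above the B cell median, and those of PYCARD (-0.38) and GSDMD (-0.35) lay above all of them. The part of these cells in the values of NLRP3, PYCARD and GSDMD was not tested.

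Lists with a higher sum on day 6 stand beside the rise of CASP4. Of 8 neutrophil markers 1 was called higher, S100A8 (1.98 to 10.6 TPM, log2 2.60 ± 0.82, adjusted p = 0.0175 from the authors' deposited table), and the list summed to 31.5 and 52.5 TPM with a median of 0.59. Of the other 7, 4 had positive values, CXCR2 (0.517 and 0.85 TPM, log2 0.96 ± 0.98), MMP9 (13.9 and 21.8 TPM, log2 0.95 ± 1.198), S100A9 (4.88 and 7.82 TPM, log2 0.84 ± 0.77) and S100A12 (9.97 and 11.2 TPM, log2 0.35 ± 0.55), in the authors' deposited table. The other 3, MPO (0.0187 and 0.0146 TPM), ELANE (0.127 and 0.0338 TPM) and CSF3R (0.193 and 0.159 TPM), had negative values and were near 0 on both days in the authors' deposited table. MPO and ELANE are transcribed mainly in neutrophil precursors of the bone marrow. Of 8 markers of steroidogenic luteal cells, the defining cells of the tissue, 2 were called higher, STAR and SCARB1, and the list summed to 6117 and 16383 TPM with a median of 1.53. SCARB1 lost its call on the TPM scale. The other 6 had positive values and were not called. Errors were wide for CYP11A1 (log2 1.61 ± 1.03), HSD3B1 (1.44 ± 1.01) and PTGFR (0.95 ± 1.23), which hold much of the sum. The part of either cell type in the rise of CASP4 was not tested. Endothelial markers (8 genes, 0 higher, 1 lower, median -0.15) summed to 307 and 238 TPM, fibroblast markers (7 genes, 0 higher, 2 lower, median -0.04) to 11867 and 10088 TPM, and pericyte and smooth muscle markers (8 genes, 0 higher, 4 lower, median -1.15) to 2338 and 662 TPM. All counts of called markers in this paragraph stand beside 4.12% higher and 10.4% lower over all entries.

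**Figure D5:**
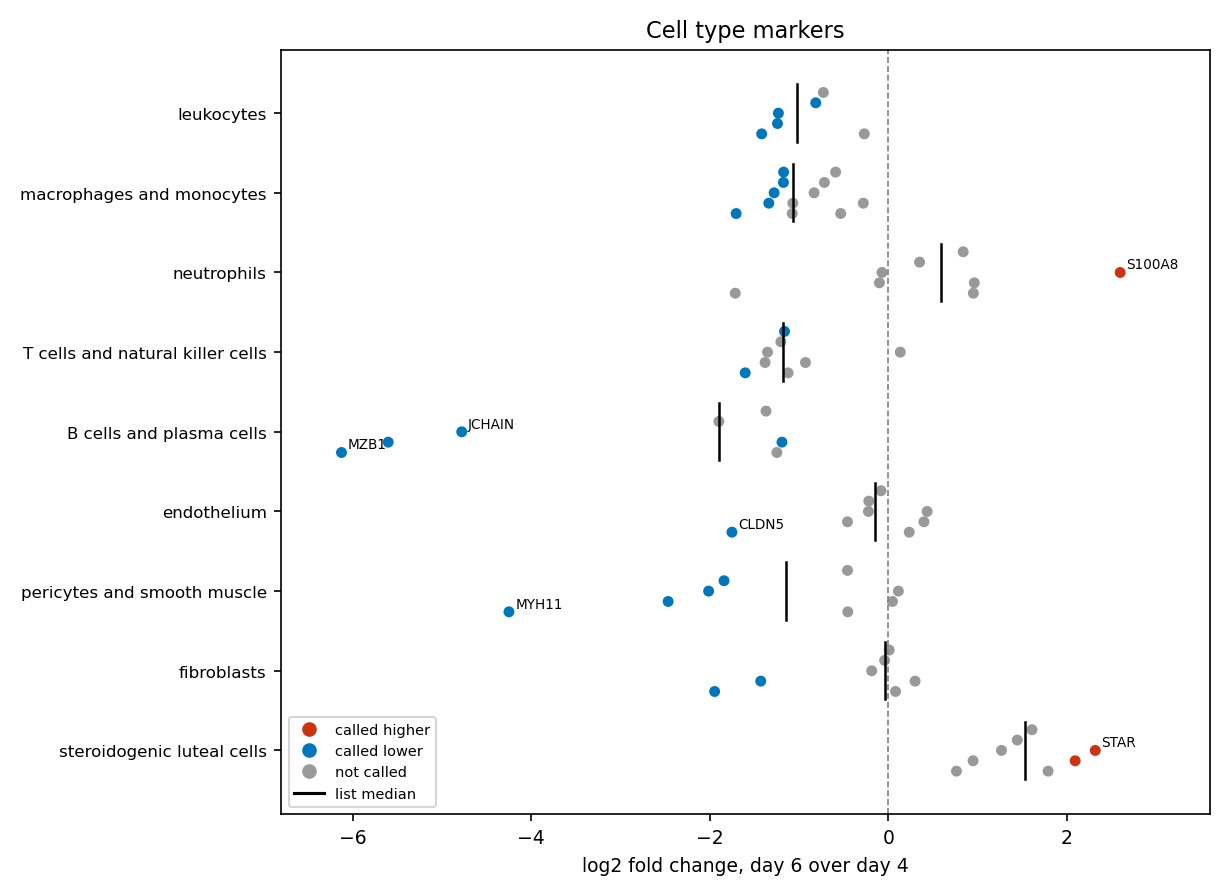
Log2 fold change, day 6 over day 4, of each gene of the 9 cell type marker lists, coloured by call as red for higher, blue for lower and grey for neither, with black bars at list medians. Macrophage, leukocyte, T cell and B cell medians lie at or below -1.02, as does that of pericyte and smooth muscle markers (-1.15). Those of neutrophil and steroidogenic luteal markers lie at 0.59 and 1.53.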

How the data were processed

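The file used here is 1 table of the authors with means per day and test results, without values per library. FastQC, DESeq2 and the build ARS-UCD1.2 stand in the submitters' processing notes without versions, and the read counter and annotation were not given in the sources at hand. The labels state a target read number per library, but the depth reached is unknown, so no counting interval was computed. The deposited means are in TPM, read from the values, since each column sums to 999999. The deposited column of log2 values equals the log2 ratio of both mean TPM with 1 added (all 19539 entries, tolerance 1e-06). The deposited score is a Wald statistic. The authors' p-value is its two-sided normal p in 19485 entries, with Benjamini-Hochberg adjustment over these, and the other 54 were left out.

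Here the score times its standard error gave the log2 fold change (Python 3.11.15, scipy 1.17.1). Intervals are 95% Wald intervals. The smallest change called is 2.69 standard errors, the score at the largest called p. Adjusted p-values on other scales were recomputed over all tested entries, keeping the standard errors. The steps were tested on simulated data. No test of a list was run. The members, the lists and the naming rule (all members, in each pathway list the called genes and, with fewer than 3 of these, the 3 of smallest p, and called leukocyte, macrophage and neutrophil markers) were chosen with earlier results of these data known. TNFRSF1A, TNF, HSP90AB1, NLRP12, NOD1, NOD2, NINJ1, IL1B, IL1A, IL18 and the uncalled or other cell markers were named after their values were seen. Of 210 listed genes, 14 outside the 8 members were not found. Positions in the RefSeq table of ARS-UCD2.0 served only to find neighbouring and overlapping genes, and none of the 8 members overlaps another gene there. Sequences were not used here.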

Additional observations from a re-analysis of the deposited data

How the results depend on the processing

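Alternatives were the TPM scale, the nuclear TPM scale (without mitochondrially encoded genes), fold changes centred on their median, an adjusted p under 0.01, a minimum of 1 TPM, a Wald test against a fold of 1.5 and a t distribution with 5 degrees of freedom. The sign of CASP4 held in each, and its call in all but the last 2 (log2 0.90, adjusted p = 1 and 0.265), where 0 of the 7 genes were called. Over all entries these 2 tests called 502 and 0, with 5552 at an unadjusted p under 0.05 by the authors' test. On the TPM scale 1 gene was called lower, NLRP3 (-1.50). At a minimum of 1 TPM NLRP3 was not among the entries tested. Signs turned for RIPK3 (-0.0020) and MLKL (-0.16) on the TPM scale and for RIPK1 (0.048) on the nuclear TPM scale, each uncalled. The turn of RIPK3 arose from the common offset, since its own log2 ratio of mean TPM was 0.0043. Of pathway genes outside the named set, 6 higher and 9 lower became 1 and 28 on the TPM scale, 22 and 7 on the nuclear TPM scale, 1 and 4 at an adjusted p under 0.01, 0 and 2 against a fold of 1.5, and 0 and 0 with the t distribution. The shifts of scale account for the first 2, and the stricter thresholds for the others. No paired analysis was possible because the table holds 1 mean per day, and for that reason neither a fit without single replicates nor one on counts was run. No symbol of the 7 genes repeats, so no other entry could be tried.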

Other observations

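Relatives of the named genes that stand on none of the lists were chosen after their values were seen. Of 14 such RIPK, NLR and caspase genes tested, 0 were called, beside 14.5% of all entries, by the authors' Wald test and 1 had an unadjusted p under 0.05. That gene was CASP9, the initiator caspase of the mitochondrial death pathway, with 7.23 TPM on day 4 and 3.38 TPM on day 6 (log2 -0.89 ± 0.34, adjusted p = 0.0603 from the authors' deposited table). RIPK2, a kinase of NOD receptor signalling that takes no part in necroptosis, stood at 14.5 and 16.4 TPM (log2 0.40 ± 0.25, adjusted p = 0.289 from the authors' deposited table), a level close to that of RIPK1. NLRC5, a regulator of MHC class I genes, stood at 2.44 and 2.13 TPM (log2 0.02 ± 0.22, adjusted p = 0.952 from the authors' deposited table).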
